A study of Mus musculus with 30 samples.

Results

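*Dppa3*, also called *Stella* or *PGC7*, was followed over 30 single mouse PGCs through its 1 probe set on the array (1424295_at), together with the genes whose levels ran with or against it. *Dppa3* is 1 of 18194 genes that had a probe set with 1 symbol. The other genes were ranked by the Spearman rank correlation (rho) of their level with that of *Dppa3* over cells, after values below 6 on the log2 scale (64 MBEI, the model-based expression index of dChip) had been set to that floor. Of these genes, 9833 were above the floor in at least 6 of the 30 cells and were called detected. A gene was called a follower of *Dppa3* at rho of at least 0.6 and an opposite gene at rho of -0.6 or lower.

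PGCs are the precursors of sperm and oocytes. They arise from the epiblast under BMP signals, and the transcription factors PRDM1, PRDM14 and TFAP2C specify them, while the mesodermal programme of the surrounding cells is shut off and pluripotency genes are regained. *Dppa3* is switched on soon after specification and is one of the most used markers of these cells. Its small protein is also a maternal factor of the egg and acts on DNA methylation through UHRF1, the partner that brings the maintenance methyltransferase DNMT1 to newly copied DNA.

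The cells came from embryos of C57BL/6 *Prdm14* +/- parents at E7.25-E7.5. They were picked singly from the base of the allantois bud, their cDNA was amplified, and cDNAs positive for *Prdm1* by PCR were taken as PGCs and hybridised to 1 array each. By the deposited labels, 13 cells are WT, 13 are *Prdm14* +/- and 4 are *Prdm14* KO, the last (-/-) for a germline null allele of this regulator by PCR. Array codes fall into 3 runs of 10 cells, with 10 cells labelled WT in run 1, 3 labelled WT and 7 labelled *Prdm14* +/- in run 2, and 6 labelled *Prdm14* +/- and all 4 labelled *Prdm14* KO in run 3. Since no label ties a cell to its embryo, a genotype was taken as 1 sample, no test was run, and correlations over cells are descriptions.

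*Prdm14* itself lay at the floor in 7 of 13 cells labelled WT, in 1 of 13 labelled *Prdm14* +/- and in 0 of 4 labelled *Prdm14* KO, which goes against the labels. The sources used here do not say if the null allele lacks the part of the gene that the probes read. Groups are therefore named by their labels, and the numbers of followers and opposite genes are also given without the cells labelled *Prdm14* KO. An array had between 21.9% and 31.5% of its 45101 probe sets above the floor, and the highest value of an array lay between 13.72 and 16.05. All 30 cells had *Prdm1* above the floor, the gene for which their cDNAs had been selected by PCR. Among markers of other cell types, *Afp*, *Ttr*, *Apoa1* and *Cubn* of visceral endoderm, *Gata1*, *Hba-x* and *Hbb-bh1* of blood, and *Tbx4* of the allantois were at the floor in every cell. They are 4 of 6, 3 of 7 and 1 of 7 measured markers of visceral endoderm, blood and endothelium, and allantois and posterior mesoderm. The lists also held genes above the floor, with *Hnf4a* in 10 cells, *Lmo2* in 18 and *Kdr* in 10. Of the allantois and mesoderm markers, *Cdx2* and *Msx1* were above it in 30 cells, *Bmp4* and *Evx1* in 29 and *Hand1* in 25.

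To show what the genes at both ends have in front of their start sites, promoters are printed for 2 followers, *Klf2* and *Ifitm3*, and for the 2 genes with the lowest rho, *Ldha* and *Pgk1*. Each is 300 bases, from 250 bases before to 50 after a RefSeq start on GRCm38.p6, written 5′ to 3′ on the strand of the gene. Capitals mark ACGTG on either strand, the core that hypoxia-inducible factors recognise, and overlapping matches run together in 1 block. *Ldha* has 2 windows, of which the upstream one is shown.
Klf2, chr8:72318812-72319111 (+): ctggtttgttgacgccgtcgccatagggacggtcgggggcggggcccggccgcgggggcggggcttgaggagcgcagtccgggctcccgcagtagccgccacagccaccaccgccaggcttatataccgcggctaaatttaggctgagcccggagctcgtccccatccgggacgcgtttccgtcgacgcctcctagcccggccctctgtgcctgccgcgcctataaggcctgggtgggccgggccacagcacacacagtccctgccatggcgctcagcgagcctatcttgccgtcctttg
Ifitm3, chr7:141010695-141010994 (-): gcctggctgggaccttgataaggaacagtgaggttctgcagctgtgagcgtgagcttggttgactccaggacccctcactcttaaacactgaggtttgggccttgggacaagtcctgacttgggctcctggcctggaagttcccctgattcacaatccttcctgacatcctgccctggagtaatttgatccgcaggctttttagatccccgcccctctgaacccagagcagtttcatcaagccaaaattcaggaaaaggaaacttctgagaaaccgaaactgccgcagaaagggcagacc
Ldha, chr7:46845554-46845853 (+): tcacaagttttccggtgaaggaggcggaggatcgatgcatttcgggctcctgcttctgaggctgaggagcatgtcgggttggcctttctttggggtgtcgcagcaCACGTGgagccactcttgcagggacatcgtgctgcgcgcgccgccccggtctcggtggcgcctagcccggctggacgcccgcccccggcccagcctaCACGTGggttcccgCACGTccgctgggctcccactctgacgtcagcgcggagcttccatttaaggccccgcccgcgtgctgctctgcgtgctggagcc
Pgk1, chrX:106186850-106187149 (+): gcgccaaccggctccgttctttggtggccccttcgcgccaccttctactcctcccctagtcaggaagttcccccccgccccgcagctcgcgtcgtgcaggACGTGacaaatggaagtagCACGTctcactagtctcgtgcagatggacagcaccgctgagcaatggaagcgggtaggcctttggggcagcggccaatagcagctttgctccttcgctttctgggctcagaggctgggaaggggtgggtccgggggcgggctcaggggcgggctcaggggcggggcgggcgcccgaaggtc
The core was matched at 5 positions, both strands counted, in this window of *Ldha*, at 2 in that of *Pgk1*, and at 0 in those of *Klf2* and *Ifitm3*. The genes shown do not stand for their sets: the second *Ldha* window had 0 matches, and of the named followers *Txndc12* had 1 match and *Syce2* 2 in 1 of its windows. The windows of *Klf2* and *Ldha* are rich in CG dinucleotides, with 32 and 30, against 5 in the window of *Ifitm3*.

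*Dppa3* varied more between the cells than nearly any other gene. Its SD over the 30 cells was 2.54 on the log2 scale, larger than that of 99.9% of detected genes, whose median SD was 1.29. Among the cells labelled *Prdm14* +/- its SD was 2.87 and larger than that of 99.9% of genes, and among those labelled WT it was 2.01 and larger than that of 96.2%. *Dppa3* was above the floor in 24 cells and at the floor in 6.

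The deposited levels of *Dppa3* in the 4 cells labelled *Prdm14* KO were 12.80, 12.72, 12.71 and 11.98, the last in cell 8. In the 13 labelled *Prdm14* +/- the floored level ranged from 6, in 3 cells, through a median of 12.12 to 13.06. In the 13 labelled WT it ranged from 6, also in 3 cells, through a median of 9.26 to 11.77. Every cell labelled *Prdm14* KO thus lay above every cell labelled WT and inside the range of those labelled *Prdm14* +/-. This order of KO and WT is the reverse of the one the study draws from microarrays. The study also cites single-cell quantitative PCR, RNA-seq of *Prdm14* KO PGC-like cells made in vitro, and earlier immunostaining of DPPA3. Those data were not examined here. Means were 12.55 ± 0.38 (SD, n = 4 cells) for KO, 10.23 ± 2.87 (SD, n = 13) for +/- and 9.05 ± 2.01 (SD, n = 13) for WT.

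The order of these means was KO, +/-, WT, but of the 3 differences only that between KO and WT, 3.51, exceeded its pooled SD between cells, 1.81. These 2 labels share no run, so label and run cannot be told apart in it. The difference of 2.33 between KO and +/- was within the pooled SD of 2.58, and that of 1.18 between +/- and WT was within the pooled SD of 2.48. The means also differed between runs within a label, by less than the larger SD for +/-. Cells labelled *Prdm14* +/- had a mean of 11.26 ± 2.55 in run 2 (SD, n = 7) and 9.02 ± 2.97 in run 3 (SD, n = 6). Those labelled WT had 9.63 ± 1.71 in run 1 (SD, n = 10) and 7.08 ± 1.88 in run 2 (SD, n = 3). Within run 2 the difference between +/- and WT was 4.18 with a pooled SD of 2.40, and within run 3 that between KO and +/- was 3.53 with a pooled SD of 2.36. Compared within a run, both therefore exceeded the spread between cells.

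**Figure D1:**
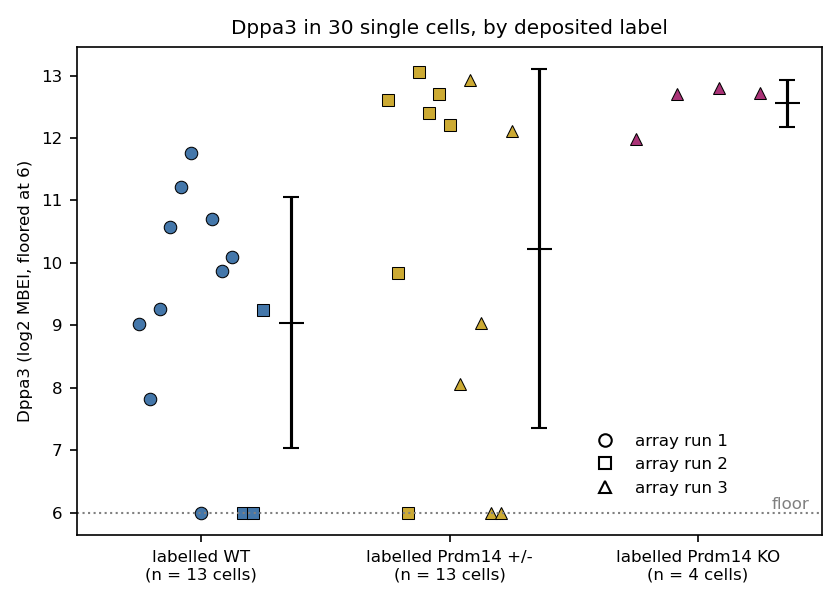
Floored log2 MBEI of *Dppa3* in each of the 30 cells by deposited label (1 point per cell, shape for array run), with the mean and SD of each label to its right. The 4 cells labelled *Prdm14* KO sit between 11.98 and 12.80, while the other labels each have 3 cells at the floor of 6.

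The distribution above the floor had few breaks. The widest gap between neighbouring cells was 0.95, from 8.07 to 9.02, followed by 0.59, from 9.26 to 9.85, and 0.55, from 11.21 to 11.77. No cell lay between the floor and 7.82, so the on and off states were separated by more than any gap among the cells above the floor, although the floor itself sets part of that distance. Below it, 3 cells held a deposited value, 4.63 and 3.40 in WT cells 50 and 61 and 4.21 in *Prdm14* +/- cell 118, and 3 were listed at 0, WT cell 64 and *Prdm14* +/- cells 78 and 100.

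The 6 cells without *Dppa3* above the floor were not alike in the other germ cell genes. WT cell 64 had *Prdm1* at 11.24, *Prdm14* at 9.34, *Tfap2c* at 11.95, *Kit* at 11.56 and *Ifitm3* at 12.87, with the mesodermal genes *Hoxb1* and *Mixl1* listed at 0 but *Hand1* at 9.79. *Prdm14* +/- cell 118 and WT cell 50 had *Tfap2c* at 11.27 and 10.86 and *Prdm14* at 6.35 and 0, beside *Hoxb1* at 7.04 and 9.79 and *Mixl1* at 6.62 and 8.25. The other 3 cells, *Prdm14* +/- cells 78 and 100 and WT cell 61, had *Tfap2c* at the floor, *Ifitm3* at 10.68, 11.05 and 8.59, and *Prdm1* at 7.83, 8.08 and 8.04. Among these 3, *Kit* was at 10.49 in cell 78 and 8.77 in cell 61 but at the floor in cell 100, and cell 78 still had *Prdm14* at 8.97. *Tfap2c* was thus above the floor in 3 of the 6 cells, *Prdm14* in 3 and *Mixl1* in 5. The share of probe sets above the floor on these 6 arrays ran from 23.95% in WT cell 50 to 29.81% in *Prdm14* +/- cell 78. The mean over all arrays, these 6 included, was 27.15% with an SD of 2.60. A difference in this share between these 6 arrays and the others was not tested.

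Over the 30 cells, 99 detected genes followed *Dppa3* and 80 ran opposite, which is 1.01% and 0.814% of the 9833 genes. The values of rho ran from -0.82 to 0.81 with a median of 0.00. Without the 4 cells labelled *Prdm14* KO the numbers were 72 and 89, of which 47 and 51 were among the genes called over all cells. Genes named below that then fell inside the limit included *Prdm14* and *Kit* (0.59 each), *Esrrb* (0.58), *Gdf3* (0.57), *Sox2* (0.45) and *Uhrf1* (-0.58). Over the 24 cells with *Dppa3* above the floor the numbers were 98 and 119, with 56 and 39 shared. Of the 80 opposite genes, 40 were above the floor in all 30 cells, compared with 33 of the 99 followers and 1711 of the 9833 detected genes. At the other end, 25 of the 99 followers and 12 of the 80 opposite genes were above the floor in fewer than 15 cells, against 2632 of all detected genes.

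The 15 followers named here had the highest rho among genes with the same sign of rho in the cells labelled WT, in those labelled *Prdm14* +/- and in each run. In order they were *Klf2* (rho = 0.81), *Abcg1* (0.77), *Txndc12*, *Lsm8*, *Ifitm3*, *Nid2* and *Cldn5* (0.76 each), *Ndufa6* (0.74), *Syce2*, *Sft2d1* and *Sox15* (0.73 each), *Ttf2* (0.72), and *Mbp*, *Pla2g10* and *Psme1* (0.71 each). They comprise pluripotency transcription factors (*Klf2*, *Sox15*), membrane and junction proteins (*Cldn5* of tight junctions, the cholesterol exporter *Abcg1*, *Ifitm3*), the basement membrane protein *Nid2*, and *Syce2*, a central element protein of the synaptonemal complex that pairs chromosomes in meiosis. They differed in form, with some on in few cells and others shifting slightly in every cell. *Ttf2*, a transcription termination factor, rested on ranks, with a Pearson r of 0.26 and a rho of 0.24 once the mean of each label in each run had been subtracted.

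*Klf2*, a factor of the naive pluripotent state, was of the first kind. It was at 10.85, 10.53, 10.73 and 9.95 in the cells labelled *Prdm14* KO. In those labelled *Prdm14* +/- it reached 11.52 but was at the floor in 8 of 13, and in those labelled WT it was above the floor in 1 of 13, at 10.45. All 10 cells with *Klf2* above the floor had *Dppa3* at 11.77 or higher. *Mbp* and *Pla2g10*, with 8 cells each, and *Esrrb*, another naive factor with 9 cells and rho of 0.66, were likewise above the floor only in cells with *Dppa3* at 11.77 or higher. *Abcg1* was above the floor in 11 cells, all with *Dppa3* at 10.58 or higher. It was 10.83, 9.02 and 9.39 in 3 cells labelled *Prdm14* KO and listed at 0 in the fourth, cell 8. For these genes, the cells at the floor share 1 tied rank. Their rho therefore also holds the contrast between these cells and those above the floor, not only the order among the latter. *Klf2*, *Mbp*, *Pla2g10* and *Esrrb* were above the floor in 1 cell labelled WT, cell 49, so their rho within that label and within run 1 (0.47 and 0.52 each) rests on that cell.

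*Nid2* was of the second kind. Its levels were 10.98, 11.84, 11.39 and 11.97 in the cells labelled *Prdm14* KO, 9.64 to 11.78 with a median of 11.01 in those labelled *Prdm14* +/-, and 8.27 to 11.85 with a median of 10.48 in those labelled WT. The 3 ranges overlapped, and the run with *Dppa3* lay within them, with rho of 0.67 among the cells labelled WT, 0.86 among those labelled *Prdm14* +/-, and 0.78 after the mean of each label in each run had been subtracted, the highest value of all genes under that subtraction. *Ifitm3*, a membrane protein long used to recognise early PGCs, was above the floor in all cells at a mean of 12.68. It was 13.16 to 13.44 in the cells labelled *Prdm14* KO, 10.68 to 13.39 in those labelled *Prdm14* +/- and 8.59 to 13.42 in those labelled WT. Its rho was 0.90 among the cells labelled *Prdm14* +/- and 0.17 among those labelled WT, and this difference was not tested. *Lsm8*, an RNA-binding subunit of the spliceosome, spanned only 11.74 to 12.84, changing by 0.08 per log2 unit of *Dppa3*, and still had rho of 0.83 among the cells labelled *Prdm14* +/- and 0.60 among those labelled WT.

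**Figure D2:**
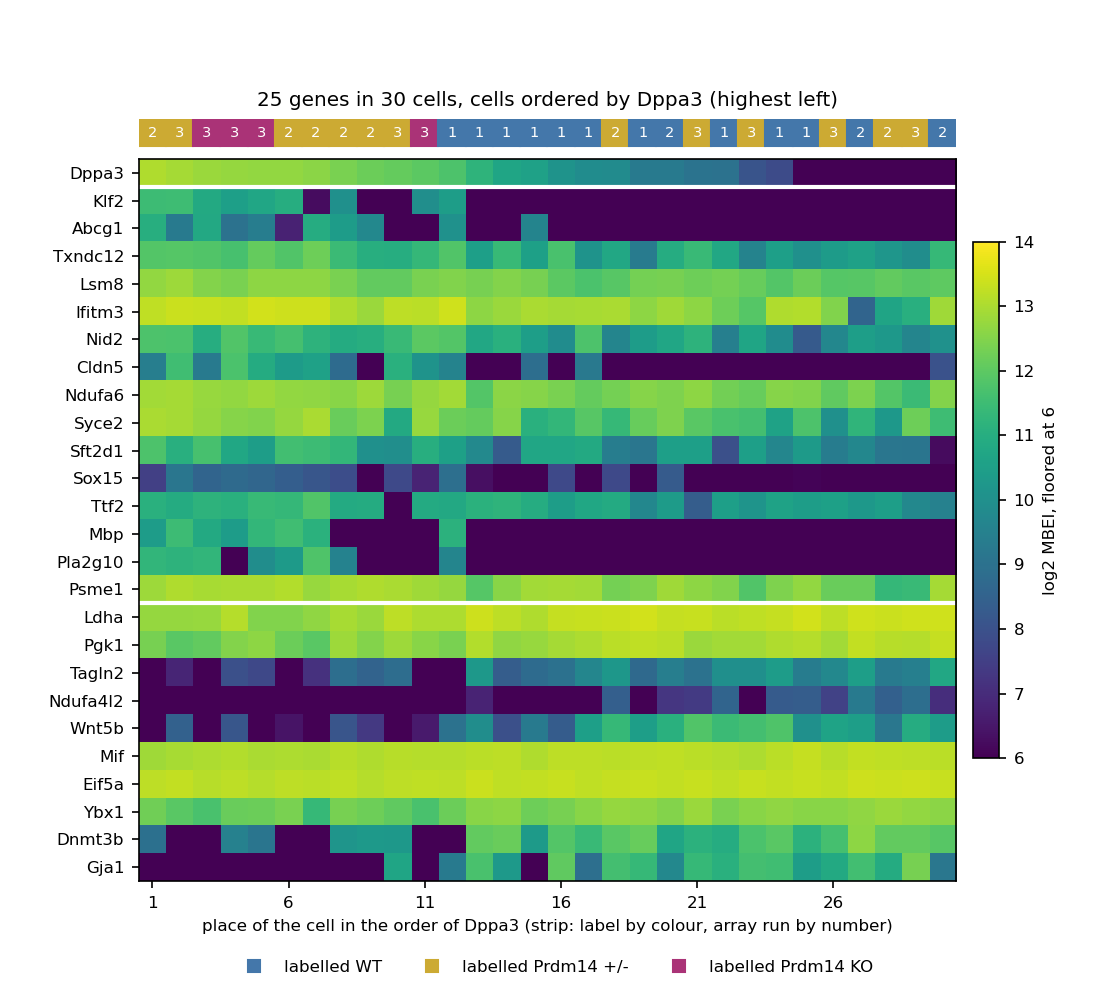
Floored log2 MBEI (colour, 6 to 14) of *Dppa3*, the 15 named followers and the 10 genes with the lowest rho in 30 cells, ordered by *Dppa3* from left to right, with the label as colour and the array run as number above. The 6 cells at the right are tied at the floor for *Dppa3* and have no order. *Klf2*, *Mbp* and *Pla2g10* are above the floor only toward the left, where *Gja1* and *Ndufa4l2* are mostly at the floor.

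The 10 named opposite genes were *Ldha* and *Pgk1* (rho = -0.82 each), *Tagln2* (-0.80), *Ndufa4l2* and *Wnt5b* (-0.78 each), *Mif* (-0.77), *Eif5a* and *Ybx1* (-0.76 each), *Dnmt3b* (-0.74) and *Gja1* (-0.71). *Ldha* and *Pgk1* are glycolytic enzymes, lactate dehydrogenase and phosphoglycerate kinase. *Ndufa4l2* codes for a mitochondrial protein known as a target of hypoxia-inducible factor. *Wnt5b* is a secreted ligand of posterior mesoderm, *Gja1* the gap junction protein connexin 43, *Tagln2* an actin-binding protein and *Dnmt3b* the de novo DNA methyltransferase that is strong in the epiblast.

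*Ldha* was 12.76, 13.10, 12.48 and 13.02 in the cells labelled *Prdm14* KO, 12.50 to 13.44 with a median of 13.19 in those labelled *Prdm14* +/-, and 13.03 to 13.47 with a median of 13.31 in those labelled WT. *Pgk1* was 12.07, 12.53, 12.63 and 12.58 in the first, 11.95 to 13.17 in the second and 12.38 to 13.30 in the third. Both were thus high in every cell and overlapped between labels, and their steps were small, -0.09 and -0.12 on the log2 scale per log2 unit of *Dppa3*. Their rho was -0.61 and -0.72 among the cells labelled WT, -0.85 and -0.83 among those labelled *Prdm14* +/-, and -0.67 and -0.65 after subtraction of label and run means. *Mif* and *Eif5a* had still smaller SDs over the cells, 0.10 and 0.08. The control probe set for the 3′ end of *Gapdh*, another glycolytic enzyme, moved the same way, with rho of -0.73 and a range of 12.98 to 13.45. That for its 5′ end had rho of -0.57, and those for the 3′ and 5′ ends of *Actb* -0.50 and -0.47. The *Actb* 5′ level had means of 8.94, 9.37 and 9.80 in the cells labelled *Prdm14* KO, *Prdm14* +/- and WT, against 12.16, 12.03 and 12.26 for the 3′ end. By comparison the share of probe sets above the floor had rho of -0.14 with *Dppa3*, the 75th percentile of the array -0.12 and the lys spike control 0.09, while the hybridisation controls BioDn and BioB had 0.38 and 0.24. The part of RNA quality, hybridisation or signal near the top of the array in these small steps was not tested.

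*Wnt5b*, *Gja1* and *Dnmt3b* took larger steps, of -0.60, -0.72 and -0.63 per log2 unit of *Dppa3*. *Wnt5b* was 8.13 and 6.57 in 2 cells labelled *Prdm14* KO and listed at 0 in 2. It ranged from 6 to 11.84 in those labelled *Prdm14* +/-, and was 7.96 to 11.79 in those labelled WT, with rho of -0.68 among the former and -0.61 among the latter. Over the 24 cells with *Dppa3* above the floor its rho was -0.85, the lowest of all genes there. For *Gja1*, 4 of 4 cells labelled *Prdm14* KO were at the floor, 6 of 13 labelled *Prdm14* +/- and 1 of 13 labelled WT. *Dnmt3b* was 9.53 and 9.12 in 2 cells labelled *Prdm14* KO and listed at 0 in the other 2, with a median of 10.34 in those labelled *Prdm14* +/- and 11.87 in those labelled WT. *Dnmt3b* had rho of -0.90 among the cells labelled *Prdm14* +/- but -0.21 among those labelled WT, and *Gja1* -0.83 and -0.09, differences that were not tested.

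**Figure D3:**
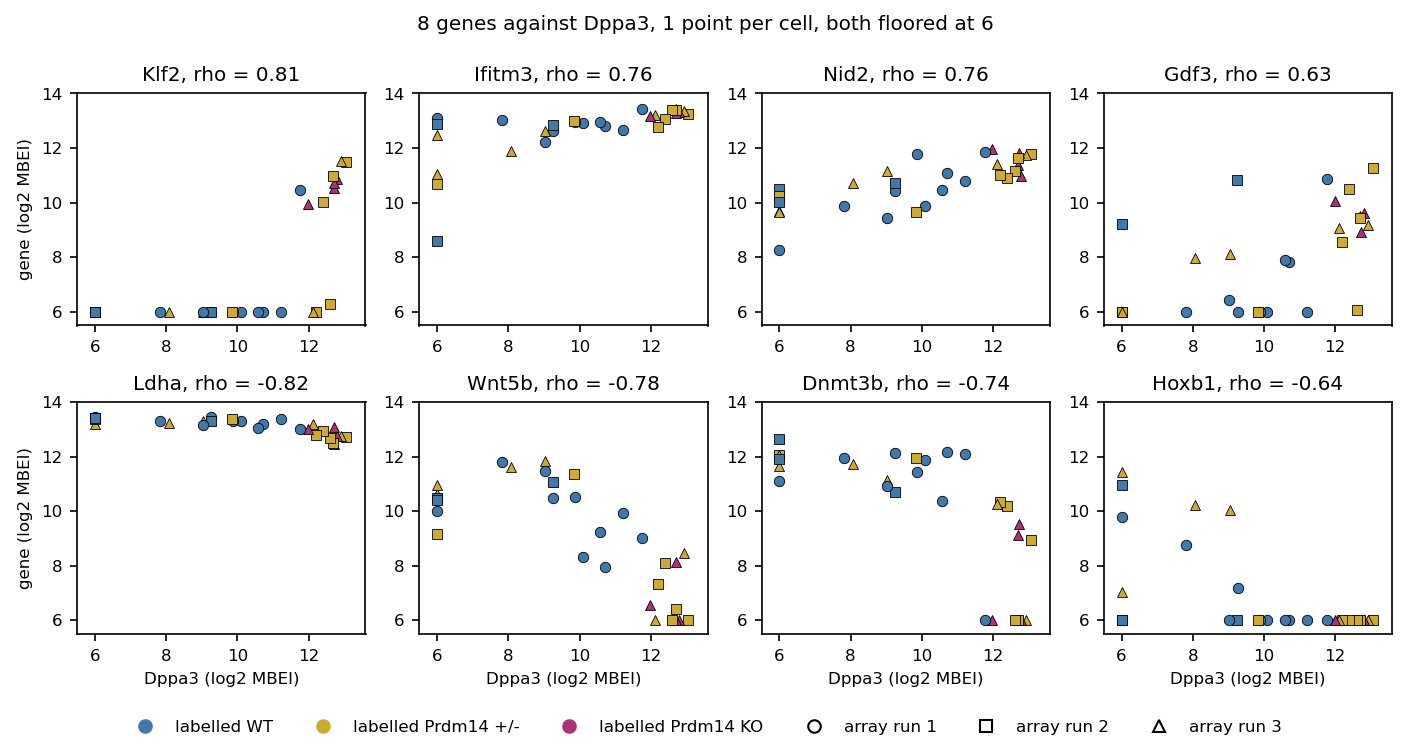
Levels of 8 genes (vertical axis, log2 MBEI) against *Dppa3* (horizontal axis, log2 MBEI), both floored at 6, with 1 point per cell, colour for label and shape for array run. *Klf2* leaves the floor only at the right, *Nid2* climbs over the whole range, *Ldha* stays between 12.48 and 13.47, and *Hoxb1* is above the floor only where *Dppa3* is at 9.26 or lower.

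The order of genes by rho was only partly shared between labels and runs. Across 9692 genes, rho in the cells labelled WT and rho in those labelled *Prdm14* +/- had a Spearman correlation of 0.18, and rho in run 1 and in run 3 one of 0.13. These are correlations across genes, which are not independent replicates. More genes pass any limit over fewer cells: with 13 cells labelled WT, 1.85% of genes had rho of at least 0.6 and 2.06% of -0.6 or lower, and with the 13 labelled *Prdm14* +/-, 5.09% and 5.50%. Of the 99 followers, 13 passed the same limit among the cells labelled WT and 89 among those labelled *Prdm14* +/-, with medians of 0.34 and 0.76. Of the 80 opposite genes, 13 and 71 did, with medians of -0.38 and -0.75. The ranking over 30 cells used these cells too, so these counts only describe where it came from. That was mainly the cells labelled *Prdm14* +/- and runs 2 and 3. In runs 2 and 3, 83 and 74 of the 99 followers were past the limit, against 15 in run 1. Of all genes, 5.68%, 5.95% and 3.55% had rho of at least 0.6 in runs 2, 3 and 1.

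In the same sense, 74 of the 99 followers and 67 of the 80 opposite genes had their sign in both larger labels and in all 3 runs, against 14.2% of detected genes for the positive and 14.8% for the negative sign. Subtracting the mean of each label in each run left 27 genes at 0.6 or higher and 36 at -0.6 or lower, of which 13 and 14 had been called before. Under that subtraction the median was 0.48 over the 99 followers and -0.50 over the 80 opposite genes. Among the 13 followers were *Nid2*, *Txndc12*, *Lsm8*, *Cldn5*, *Sox15*, *Psme1*, *Prdm14* and *Gdf3*.

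Cells that share neither label nor run allowed a look at genes in cells that had not ranked them. The 50 genes with the highest rho in the 13 cells labelled *Prdm14* +/- had a median rho of 0.15 in the 10 cells labelled WT of run 1, and 37 of the 50 were above 0, compared with a median of -0.01 and 49.0% above 0 for all 8508 genes with a value in both. The 50 lowest had a median of -0.18 there, with 37 below 0. In the other direction, the 50 highest genes of these WT cells had a median of 0.19 in the cells labelled *Prdm14* +/-, with 35 above 0, and the 50 lowest a median of -0.32, with 38 below 0. Over all 8508 genes the median in the cells labelled *Prdm14* +/- was -0.02, with 48.5% above 0. Of the highest genes, 3 of 50 and 7 of 50 had rho of at least 0.6 in the other cells. Of all 8508 genes, 313 and 442 did.

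**Figure D4:**
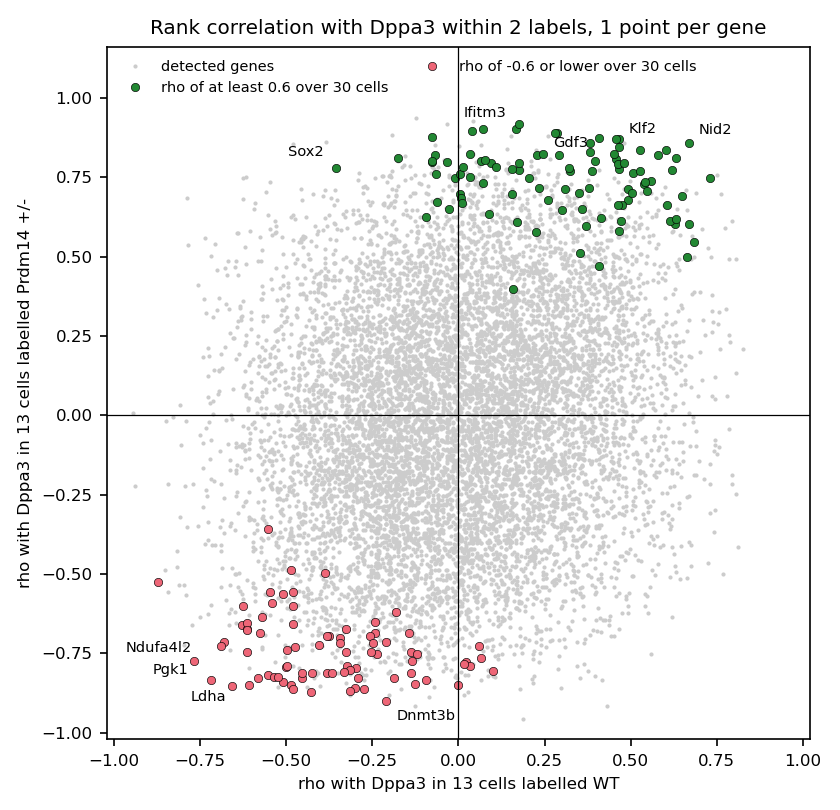
Rank correlation with *Dppa3* in the 13 cells labelled WT (horizontal axis) and in the 13 labelled *Prdm14* +/- (vertical axis), 1 point per detected gene, with the 99 followers in green and the 80 opposite genes in red. The followers have a median of 0.34 on the horizontal and 0.76 on the vertical axis, and *Sox2* lies left of 0.

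Genes of germ cell specification and the PGC surface leaned to the side of *Dppa3*. Of 10 listed, 8 were detected and all 8 had rho above 0, with a median of 0.56 against 0.00 over all detected genes. *Prdm14*, *Kit* and *Ifitm3* were followers with rho of 0.69, 0.64 and 0.76, where 1.01% of all detected genes were followers. *Prdm1*, at 0.60 after rounding, lay just under the limit, and *Tfap2c* was at 0.52. *Alpl*, the tissue-nonspecific alkaline phosphatase of PGCs, *Ifitm1* and *Dnd1*, an RNA-binding protein that germ cells need to survive, were at 0.43 each. The median was 0.14 among the cells labelled WT, 0.65 among those labelled *Prdm14* +/-, 0.46 without the cells labelled *Prdm14* KO and 0.52 with label and run means subtracted. *Kit*, the receptor for stem cell factor, had rho of 0.07 among the cells labelled WT and 0.90 among those labelled *Prdm14* +/-, and *Alpl* went from -0.38 to 0.63, contrasts that were not tested. The level of *Kit* was 10.99 to 12.38 in the cells labelled *Prdm14* KO, and had a median of 10.83 in those labelled *Prdm14* +/- and 10.73 in those labelled WT, both with 1 cell at the floor.

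*Prdm14* followed *Dppa3* at 0.65 with label and run means subtracted, and at 0.59 without the cells labelled *Prdm14* KO, but at 0.09 among the cells labelled WT, in 6 of which it was above the floor. In the cells labelled *Prdm14* KO the *Prdm14* level was 11.38, 12.15, 12.06 and 10.03, lowest in cell 8, which also had the lowest *Dppa3* of the 4. On and off states of *Prdm14* and *Dppa3* matched in 22 of 30 cells: 19 had both above the floor, 3 had neither, 5 had only *Dppa3* and 3 only *Prdm14*. *Dppa3* was thus above the floor in 5 cells in which *Prdm14* was not.

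Naive pluripotency genes split. Of 12 listed, 7 were detected, with 3 followers (*Klf2*, *Esrrb* and *Sox2*, at 0.81, 0.66 and 0.61), 6 of 7 above 0 and a median of 0.40. Followers made up 1.01% of all detected genes, whose median was 0.00. *Sox2*, which PGCs regain after specification, was 12.56, 12.47, 12.17 and 12.72 in the cells labelled *Prdm14* KO, and it was at the floor in 3 of 13 labelled *Prdm14* +/- and 7 of 13 labelled WT. Its rho was 0.78 among the cells labelled *Prdm14* +/- and -0.35 among those labelled WT, and 0.32 with label and run means subtracted. *Tbx3* was the 1 detected member below 0, at -0.26. Among 7 core pluripotency genes, all detected, *Gdf3* was the 1 follower, while *Pou5f1* and *Nanog* were at 0.25 and 0.01, *Lin28a* was at -0.50 and the median was 0.09. Of the other *Dppa* genes, *Dppa5a*, also on the naive list, had rho of 0.40, *Dppa2* was above the floor in 2 cells and *Dppa4* in 0.

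The machinery of DNA methylation, on which DPPA3 protein acts, leaned the other way in 2 of its genes. Of 8 listed genes, 7 were detected, 0 were followers and 2 were opposite, *Dnmt3b* at -0.74 and *Uhrf1* at -0.61. Over all detected genes, followers and opposite genes made up 1.01% and 0.814%. *Uhrf1* was 8.17, 8.31 and 8.56 in 3 cells labelled *Prdm14* KO and listed at 0 in cell 8. It had medians of 10.09 and 10.54 in the cells labelled *Prdm14* +/- and WT, with 4 and 2 at the floor. Its rho was -0.75 among the former, -0.24 among the latter and -0.42 with label and run means subtracted. *Dnmt1* was at 0.14, *Dnmt3a* at -0.22 and *Usp7*, a partner of UHRF1, at 0.08, and the median of the list was -0.11. Over 7 detected Tet and base excision repair genes the median was 0.30 with none past the limit, *Xrcc1* and *Parp1* being at 0.50 and 0.44 and *Tet1* at 0.44. Over 12 detected genes of H3K9 methylation and heterochromatin it was -0.10, from *Cbx5*, which codes for HP1 alpha, at -0.60 after rounding and not past the limit, and the methyltransferase gene *Ehmt1* at -0.53 to *Setdb1*, another H3K9 methyltransferase gene, at 0.39.

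Genes of mesoderm and the posterior embryo leaned against *Dppa3*. Of 20 listed, 15 were detected and 12 of these had rho below 0, with a median of -0.35 and 2 opposite genes, *Mixl1* at -0.67 and *Hoxb1* at -0.64. Opposite genes made up 0.814% of all detected genes, whose median was 0.00. For *Hoxb1*, 4 of 4 cells labelled *Prdm14* KO were at the floor, as were 9 of 13 in each of the other labels. The 8 cells with *Hoxb1* above the floor all had *Dppa3* at 9.26 or lower, and the 9 with *Mixl1* above it all had *Dppa3* at 10.10 or lower. *Hand1* was at -0.55, *Cdx4* at -0.51 and *Mesp1* at -0.48. The median was -0.40 among the cells labelled *Prdm14* +/- and 0.03 among those labelled WT, where *Msx1* and *Msx2* stood at 0.54 and 0.56. Within the latter, *Hoxb1*, *Mixl1* and *Mesp1* still had rho of -0.63, -0.50 and -0.71.

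Summed over marker lists, the level of 7 germ cell markers had rho of 0.73 with *Dppa3* over the 30 cells and that of 7 markers of allantois and posterior mesoderm -0.47. Within labels these were 0.10 and 0.27 for WT and 0.93 and -0.87 for *Prdm14* +/-. The summed mesoderm level ranged from 18.60 to 26.68 in cells labelled *Prdm14* KO, 16.17 to 32.61 in those labelled *Prdm14* +/- and 15.88 to 27.42 in those labelled WT. The summed level of 7 blood and endothelium markers had rho of 0.55, and 0.14 with label and run means subtracted. It ranged from 2.60 to 8.62, 0 to 6.25 and 0 to 4.23 in the same order, and *Lmo2*, at 0.59, was its detected gene nearest to *Dppa3*. The part of mesodermal or endothelial RNA in the followers and opposite genes was not tested.

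Of the remaining lists, only the housekeeping genes had members past the limit. The median was -0.21 over 10 genes of S phase, 0.09 over 9 of G2 and M phase, 0.13 over 8 stress and dissociation genes, 0.36 over 8 FGF-MAPK targets, 0.02 over 4 blood and endothelium genes, 0.15 over 4 later germline genes, 0.23 over 2 endoderm genes, 0.14 over 2 maternal effect genes and -0.12 over 2 epiblast and ectoderm genes. No extraembryonic ectoderm gene of 5 measured was detected. Housekeeping genes had a median of -0.39 over 9, with *Pgk1* and *Gapdh* (-0.68) as opposite genes. Over all detected genes the median was 0.00, and 0.814% were opposite.

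**Figure D5:**
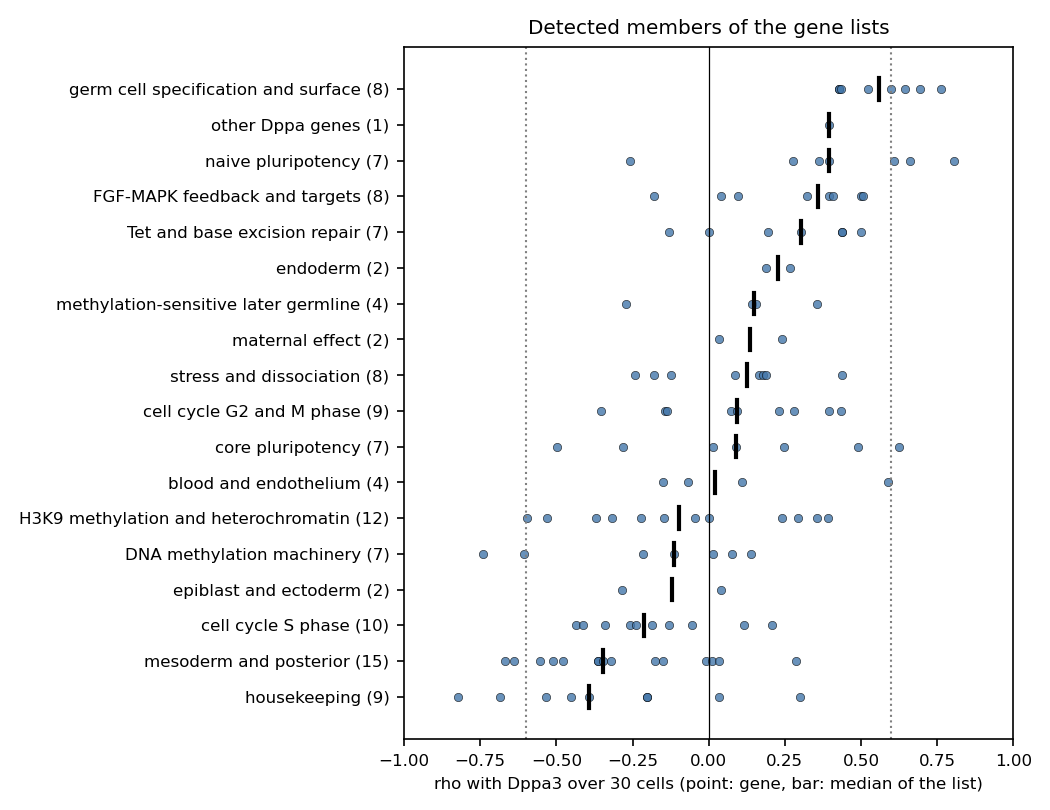
Rank correlation with *Dppa3* over 30 cells for each detected member (point) of 18 gene lists, with the median as a bar and dotted lines at -0.6 and 0.6 (number of detected genes in brackets). The germ cell list has the highest median, 0.56, and the mesoderm and housekeeping lists the lowest, -0.35 and -0.39.

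*Gdf3*, a ligand of the TGF-beta family, is also the next coding gene on the chromosome. *Dppa3* lies on chromosome 6 of GRCm38 from 122626424 to 122630271 and *Gdf3* from 122605403 to 122610087, 16337 bases away. *Gdf3* was 9.62, 8.94, 9.51 and 10.07 in the cells labelled *Prdm14* KO, up to 11.25 with 4 of 13 at the floor in those labelled *Prdm14* +/-, and up to 10.86 with 7 of 13 at the floor in those labelled WT. Its rho was 0.63 over all cells, 0.25 among those labelled WT, 0.82 among those labelled *Prdm14* +/- and 0.70 with label and run means subtracted. In 18 cells both were above the floor, in 5 neither, in 6 only *Dppa3* and in 1 only *Gdf3*. That 1 cell was WT cell 64, with *Gdf3* at 9.21.

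The other neighbours had lower rho over all cells. Within 200 kb the annotation holds 8 other coding genes, 7 of them on the array under 1 symbol. *Nanog*, 77218 bases away and above the floor in 27 cells, had rho of 0.01. *Slc2a3*, *Rimklb* and *Foxj2* had rho of 0.26, 0.18 and 0.02. Within labels this order did not hold, since *Slc2a3* had 0.49 among the cells labelled WT, above *Gdf3*, and *Rimklb* had 0.63 among those labelled *Prdm14* +/-. *Mfap5* and *Apobec1*, which lies between *Gdf3* and *Mfap5*, were above the floor in 0 cells. Chromosome 6 held 4 of the 99 followers, 4.04%, compared with 4.90% of detected genes.

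When only on and off states were compared, by the phi coefficient of calls above the floor, other genes came first. *Elf3*, an epithelial transcription factor, had the highest phi, 0.78: it was above the floor in all 24 cells with *Dppa3* above it, and 4 of the 6 cells without *Dppa3* lacked it too. *Man2b1*, a lysosomal mannosidase, had phi of 0.71. *Aspg* and *Wwtr1*, the latter a co-activator of the Hippo pathway, had phi of 0.71 and were above the floor in 20 cells each, all with *Dppa3*. *Gldc*, the glycine cleavage enzyme, had phi of 0.67. Of these 5 genes, *Elf3* was also a follower over the 30 cells, at 0.64, and *Man2b1*, *Wwtr1*, *Gldc* and *Aspg* were at 0.58, 0.58, 0.55 and 0.35. Over the 24 cells with *Dppa3* above the floor, rho was 0.40 for *Elf3*, 0.42 for *Man2b1*, -0.09 for *Aspg*, 0.31 for *Wwtr1* and 0.34 for *Gldc*, while it was 0.84 for *Klf2*, whose phi was 0.35. *Sox2*, a follower over the 30 cells and at 0.68 over these 24, had phi of 0.00.

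Start-site windows were searched on both strands for 3 motifs: GGTCTCTAA, the motif known for PRDM14, ACGTG, and ATGCAAAT, the octamer. RefSeq windows matched 12 of the 15 named followers, 9 of the 10 named opposite genes, 71 of the 99 followers and 61 of the 80 opposite genes, with several windows for genes with several starts. ACGTG was in 41.2% of 17 windows of the 10 lowest genes and in 15.4% of 13 windows of the 15 highest. The 17 windows are not separate promoters, since several belong to *Eif5a*. Its windows at 69921337-69921636 and 69921226-69921525 overlap and hold the same ACGTG site, which is counted in both. ACGTG was in 36.8% of windows of all opposite genes, 26.4% of those of all followers, 26.3% of those of detected genes and 19.6% of all 32851 windows. Here too a gene can have several windows, with 87 for the 61 opposite genes and 87 for the 71 followers. The motif holds a CG, and the median number of CG per window was 24 for opposite genes, 20 for followers and 21 for detected genes. The part of CG content in these shares was not tested. GGTCTCTAA was in 0 windows of followers and opposite genes, against 0.224% for detected genes and 0.256% of all windows, and the octamer in 1 window of the followers. These are counts of letters in short windows.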

How the data were processed

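The study hybridised amplified cDNA of 30 single PGCs to Affymetrix mouse genome arrays, 1 per cell. The authors used dChip 1.3 and its PM/MM difference model to obtain the deposited log2 MBEI. The sources used here do not give how arrays were scaled or why values are listed at 0, and all values were used as deposited. Of 45101 probe sets, 34958 had 1 gene symbol in the platform annotation, 932 had several and 9211 were unnamed here. The probe set with the highest mean stood for each gene. Values were floored at 6 (64 MBEI), and Spearman correlations were taken over cells, with ties at the floor. *Dppa3* and the 19 gene lists were chosen with earlier results of these data known. Of 195 listed genes, 13 were not found under their symbol. Named genes were the 15 highest and 10 lowest by rho with the same sign in WT, *Prdm14* +/- and each run, the 5 highest by phi, the extremes of each list and its members past 0.6, genes within 200 kb, and *Prdm1*, *Prdm14* and *Tfap2c*. Genes named beside these were chosen after their values were seen. Each sample is 1 cell and the number of arrays limits precision, so SDs describe cells and no test was run. Positions are from RefSeq (GRCm38.p6). The correlation code was checked on simulated data. Alternatives changed the floor, the scaling, the correlation, the filter, the probe sets, the centring and the cells. The tools were pandas 2.3.3, NumPy 2.4.6 and matplotlib 3.10.9 under Python 3.11.15.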

Additional observations from a re-analysis of the deposited data

Results flagged for a closer look

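Among 14 genes examined in the 4 cells labelled *Prdm14* KO, 2 had 1 cell far from the other 3, and chance alone flags about 1 in 20 such groups. The gap of *Dppa3* in cell 8, at 11.98, to the next cell was 0.882 of the range of the 4 cells. *Abcg1* was listed at 0 in the same cell, and its gap was 0.832 of the range of deposited values. With values floored at 6 that gap is 0.624 of the range, which would not have been flagged. Both are low in a cell that also had the lowest *Prdm14* of the 4, at 10.03. The array of this cell differed in other ways too. Its highest value was 14.69, against 13.72, 13.76 and 13.80 for the other 3. *Aspg*, *Mbp*, *Uhrf1* and *Wwtr1* were listed at 0 there and above the floor in the other 3, while *Gata2*, at 9.93, was above it only there. A link between these values was not tested.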

How the results depend on the processing

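The number of followers was 99 and that of opposite genes 80, and the settings that moved them by over 1.5 times were these. Pearson correlation in place of ranks gave 54 followers, averaging all probe sets of each gene 52, and subtraction of label means 48, with 62, 64 and 61 opposite genes. Of the 99 followers, 44, 45 and 27 were called again in these settings, and of the 80 opposite genes 48, 40 and 30. Subtraction of the mean of each label in each run gave 27 followers and 36 opposite genes. Averaging probe sets left 6547 genes tested, and the other causes were not tested. Leaving out 1 of the 4 cells labelled *Prdm14* KO gave 87 to 106 followers and 68 to 106 opposite genes. The other settings, which were floors of 4 and 8, quantile and 75th percentile scaling, other detection filters, subtraction of run means, partial correlation given the share of probe sets above the floor, and only the cells with *Dppa3* above the floor or those not labelled *Prdm14* KO, gave 72 to 119 and 68 to 119. The genes called changed more than the numbers: in these other settings 47 to 99 of the 99 followers and 39 to 80 of the 80 opposite genes were called again. For the 35 named genes past 0.6, all 651 alternative values kept their sign, and 577 stayed past the limit. Most of these genes were selected for extreme rho and an equal sign in these same cells, so the kept sign is no sign of stability. The *Dppa3* difference between KO and WT was 3.03 to 3.92 and stayed 3.43 to 3.70 without 1 cell labelled *Prdm14* KO. That between KO and +/- was 0.60 by medians and 2.24 to 2.52 without 1 of those cells. That between +/- and WT was 1.18, 4.18 within run 2, where 3 cells are labelled WT, and 2.86 by medians. Of the list medians, 331 alternative values moved by less than 0.19, the SD that rho has over 30 unrelated cells, and 10 by more. Removal of the 2 cells farthest from the median of *Dppa3* was not run, since 3 cells tie at 0. It was replaced, after the data were seen, by removal of those 3, which gave 112 and 90. No paired analysis was possible because the labels tie no cell to one of another genotype.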

Other observations

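Some other enzymes of glycolysis also ran against *Dppa3*, as *Ldha* and *Pgk1* did. The list of 18 was written after the values of these genes were seen, so it carries no weight of its own. The median rho was -0.45 over 16 measured and detected genes. Of these, 6 were opposite to *Dppa3* and 0 followed it, against 0.814% and 1.01% of all detected genes. Beside *Ldha*, *Pgk1* and *Gapdh* these were *Pgam1* at -0.71, *Aldoa* at -0.63 and *Tpi1* at -0.61, while *Pkm* was at -0.58 and *Hk2* at -0.55. The median was -0.37 among the cells labelled WT, -0.49 among those labelled *Prdm14* +/- and -0.17 with label and run means subtracted. Of the 16 genes, 4 had rho above 0. These were the glucose transporter *Slc2a3*, a neighbour of *Dppa3*, at 0.26, *Pfkm* at 0.18, *Aldoc* at 0.06 and *Hk1* at 0.02. *Slc2a1* was at -0.35.

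Outside the lists and the named genes, *Myc*, a growth regulator, and *Fgf3*, a ligand of the primitive streak, had rho of -0.65 and -0.61 over all cells and -0.72 and -0.61 with label and run means subtracted. On the other side *Mov10*, an RNA helicase that acts on retrotransposon RNA, had 0.61 and 0.73. These 3 were chosen after their values were seen.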
